A study of Danio rerio with 16 samples.

Results

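In RNA from pooled zebrafish (Danio rerio) gonads, 200 genes were singled out because their levels differed most between replicate pools of the same group. They were chosen by measured values, among the 31953 genes of the count table. Counts were scaled to the library total and expressed as CPM, the count of a gene per 1 M (mega) counts of its library, and the 12140 genes with a mean of 5 to 500 CPM were kept. Each value was taken as log2(CPM + 0.5), the mean of its group of 4 libraries was subtracted, and the genes with the highest standard deviation (SD) of the 16 residuals were taken. The 200 members had residual SDs of 0.513 to 1.76 on the log2 scale with a median of 0.737, against a median of 0.138 over the 12140 genes. The last members in this order were mxa at 0.5137 and PDGFA at 0.5134, and the next genes, si:dkeyp-116a7.2 and helz2a, lay just outside at 0.5133 and 0.5131. The members were thus selected on their residuals within groups, so this spread is a description and carries no test. Counting error alone, taken at each gene's mean count over the 16 libraries, would give a median SD of 0.0796, with 0.133 the highest of these genes. It was not computed for single pools, in which a gene can lie far below its mean.

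The fish carried a CRISPR-Cas9 mutation of the microRNA gene miR-214, made with a pair of guide RNAs and kept beyond the third filial generation, and the vasa:eGFP transgene, in which the vasa promoter drives a fluorescent reporter in germ cells. The strain is labelled mz 06de, tg(vasa:eGFP) and the breed TUE. The 4 groups, of 4 libraries each, were homozygous mutants (KO) and heterozygotes (HET) from a homozygous mutant mother and a heterozygous father (maternal cross), and KO and HET from a heterozygous mother and a homozygous mutant father (paternal cross). No group was wild type, so every fish had at least 1 mutant copy. Each library was made from a pool of 7 to 9 gonads, 7 in every maternal-cross HET pool and 8 or 9 in the others. Age is 31 days post-fertilisation in the titles and 27 days in the age field of the labels. The libraries held between 19.9 and 30.1 M counts each, so 3 counts, taken as the floor of detection, were worth 0.0996 to 0.151 CPM. Germ-cell and meiosis markers (19 genes) summed to 4741 to 5980 CPM and oocyte markers (27 genes) to 34516 to 47314 CPM in all 16 libraries, so both classes that mark a gonad were present throughout. The gene annotated as MIR214 had 0 to 9 counts per library. Pools 1 to 4 had 0, 0, 1 and 4 counts in maternal-cross KO and 3, 4, 9 and 3 in maternal-cross HET. They had 5, 7, 3 and 4 counts in paternal-cross KO and 0, 2, 0 and 0 in paternal-cross HET, so here every KO pool was above every HET pool. These counts are low and come from polyadenylated RNA, and they were not used to check the genotype labels. The order of the paternal-cross pools was not followed up, and the labels were taken as given.

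A gonad at this age holds germ cells and the somatic cells that support them, including Sertoli cells, which make anti-Müllerian hormone, and steroid-producing cells. It is also supplied by blood vessels and holds resident macrophages. The exocrine pancreas makes digestive enzymes as inactive precursors, fast skeletal muscle is built from myosin, actin and troponin and buffers calcium with parvalbumin, and the tubules of the kidney recover salts and solutes from the filtrate. In adult zebrafish the kidney is also the main blood-forming organ. Interferons are cytokines that switch on a shared set of antiviral genes.

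The members' residuals moved in a few blocks. A single axis of libraries held 44.2% of the members' squared residuals, the second axis 27.0% and the third 11.2%, while over all 12140 genes these shares were 40.6%, 16.4% and 11.3%. Clustering the members by the correlation of their 16 residuals (average linkage, cut at 1 minus r of 0.5) gave 3 modules of at least 8 genes. Module 1 held 97 genes with a median pairwise r of 0.67, module 2 held 35 genes with a median of 0.96, and module 3 held 33 genes with a median of 0.94. The remaining 35 genes fell into 20 smaller clusters. All genes of a library share its pool, its depth and its total, so these correlations describe the same 16 libraries and not independent gene pairs. In bulk RNA, fewer cells of a type and less RNA per cell cannot be told apart.

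**Figure D1:**
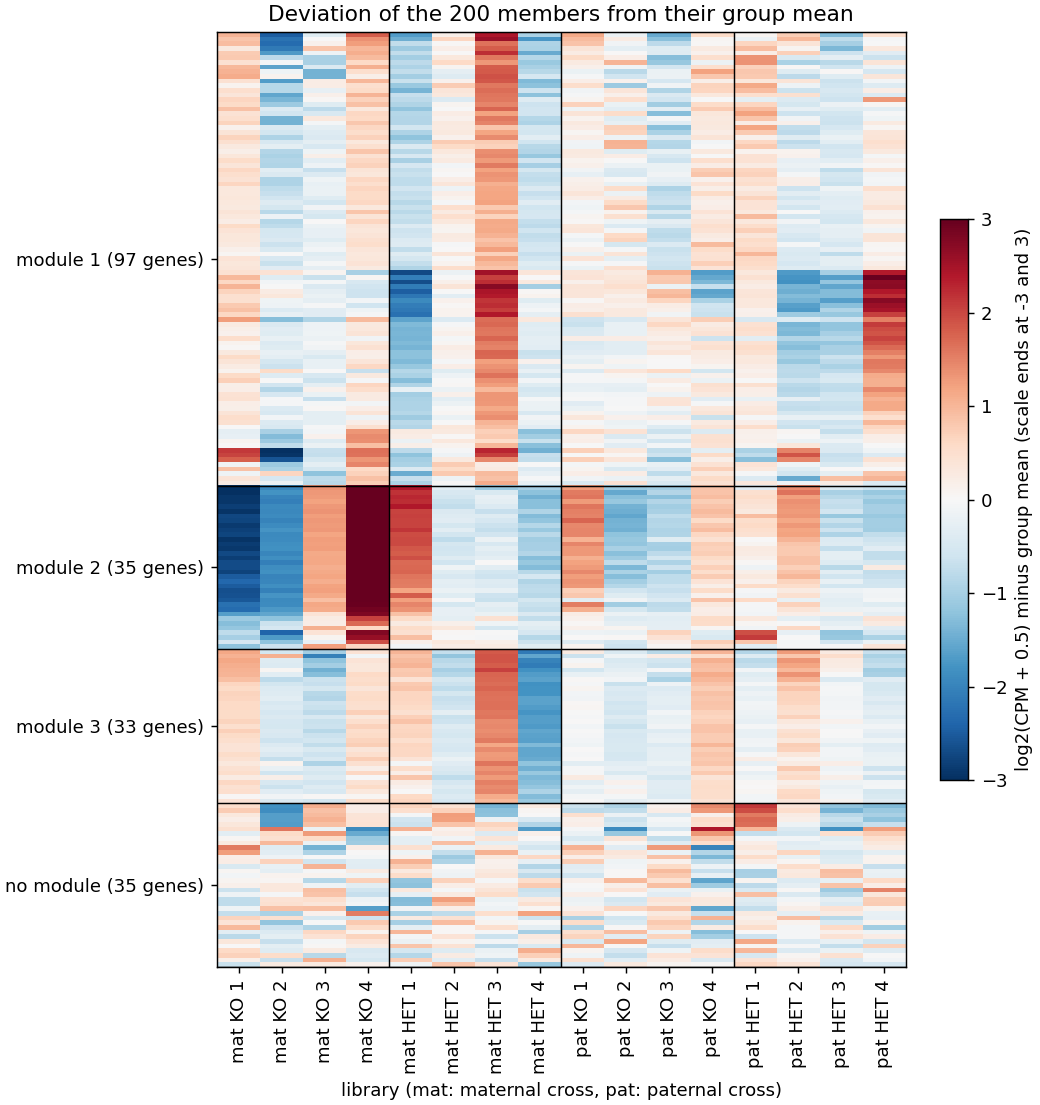
Deviation of each of the 200 members (rows, ordered by module) from its group mean in each of the 16 libraries (columns), in log2(CPM + 0.5), with the colour scale ending at -3 and 3. Module 2 is highest in maternal-cross KO 4, module 3 in maternal-cross HET 3, and part of module 1 in maternal-cross HET 3 and paternal-cross HET 4.

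The maternal cross held most of the spread. Of all squared residuals of the members, 40.6% lay in maternal-cross KO, 30.6% in maternal-cross HET, 12.1% in paternal-cross KO and 16.7% in paternal-cross HET. Maternal-cross KO 4 alone held 16.6% and maternal-cross HET 3 held 12.4%. Counting the library in which each member deviated upward most from its group, 101 members peaked in maternal-cross HET 3 and 39 in maternal-cross KO 4. Together the members took 2.61% of all counts in maternal-cross KO 4, 1.36% in maternal-cross HET 3 and 0.254% in paternal-cross HET 3, the lowest share.

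Module 2 was made mainly of pancreatic digestive enzymes. It held 21 enzyme genes (trypsins, chymotrypsins, elastases, carboxypeptidases, amylases and bile-salt lipases), SYCN, which encodes the zymogen granule protein syncollin, and pdia2, a protein disulfide isomerase of pancreas. The 10 members with the highest residual SD of all were amy2al2, ctrb.1, ela2, ctrb.2, ela3l, prss59.1, CELA1, ctrb.3, prss59.2 and ctrl, all in module 2, with SDs of 1.61 to 1.76. The module's members that followed its mean most closely were ela2l, amy2a, CPB1, si:dkey-14d8.6, CPA1 and SYCN, with r of 0.993 to 0.996.

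Summed over its 35 genes, module 2 reached 270, 484, 4072 and 19046 CPM in maternal-cross KO pools 1 to 4. In maternal-cross HET the sums were 1359, 307, 295 and 202.4 CPM. Paternal-cross KO pools had 503, 105, 137 and 356 CPM, and paternal-cross HET pools had 157, 201.1, 83.4 and 99.7 CPM. The highest pool thus exceeded the lowest 70.5 times in maternal-cross KO, 6.71 times in maternal-cross HET, 4.81 times in paternal-cross KO and 2.41 times in paternal-cross HET.

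The chymotrypsinogen gene ctrb.1 had 17.6, 42.3, 364 and 1744 CPM in maternal-cross KO and 127, 20.02, 20.3 and 11.53 CPM in maternal-cross HET. In the paternal cross it had 36.3, 3.85, 6.37 and 22.2 CPM in KO pools and 4.74, 11.1, 1.39 and 1.19 CPM in HET pools. The amylase gene amy2al2 had 3.72, 9.70, 100.5 and 574 CPM in maternal-cross KO and 39.2, 5.41, 2.88 and 3.16 CPM in maternal-cross HET. KO pools 3 and 4 were thus far above the other libraries for both genes, while KO pool 1 lay within the range of the HET pools. In the paternal cross amy2al2 had 10.01, 1.51, 1.604 and 7.32 CPM in KO pools and 0.758, 3.73, 0.664 and 0.508 CPM in HET pools.

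Of 37 listed markers of exocrine pancreas, 25 genes were found in the table, 20 of them in the CPM window, and 19 of those 20 were members. The exception was amy2al1, named after its values were seen, which stayed between 28.6 and 37.1 CPM in all 16 libraries with a residual SD of 0.11. The 25 genes summed to 220 to 14693 CPM in maternal-cross KO, 170 to 1031 CPM in maternal-cross HET, 89.0 to 377 CPM in paternal-cross KO and 83.1 to 160 CPM in paternal-cross HET, and none was at 0 throughout. Markers of endocrine pancreas (5 genes, none a member) summed to 12.5, 10.9, 14.9 and 46.9 CPM in maternal-cross KO, and to 2.34 to 4.61 CPM in the 12 other libraries. Of the 5 endocrine genes 4 lay below the CPM window, so that the rule could not choose them. Trypsin and elastase genes have near-identical copies, so the split of reads between neighbours such as prss59.1 and prss59.2 is uncertain.

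Plasma protein genes made by liver joined the same module. The 4 members grouped here were the apolipoprotein genes apoa2 and apoa1b, the transferrin gene tfa and the protease inhibitor gene serpina10a. Their sum was 21.7, 14.4, 49.3 and 172 CPM in maternal-cross KO, against 38.1, 42.7, 42.0 and 25.8 CPM in maternal-cross HET. The 4 genes did not all follow this sum. Their residuals had a median pairwise r of 0.66 and a lowest of 0.32, against a median of 0.96 over module 2. In the maternal cross 3 of the 4 had a positive log2 fold change of KO over HET, while that of serpina10a was -1.52. Apoa2 also stood out in paternal-cross HET pool 1, with 8.04 CPM against 0.498 to 1.397 CPM in the other HET pools. On the whole liver list 4 of 40 genes were members: apoa2, tfa, apoa1b and apoeb, while serpina10a was not on it. Of the 40 genes 33 lay below the CPM window, so that the rule could choose only among 7. The list summed to 302, 165, 276 and 716 CPM in maternal-cross KO and 171 to 339 CPM in maternal-cross HET.

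**Figure D2:**
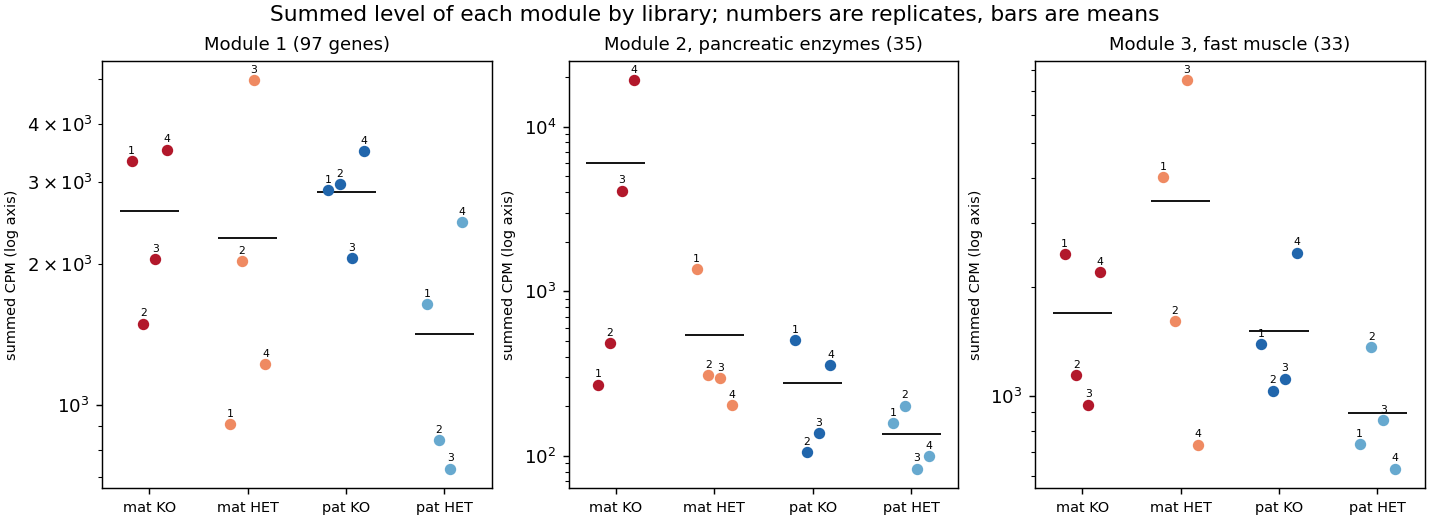
Summed level of the genes of modules 1, 2 and 3 in each library (vertical axes, CPM, log scale), with KO left of HET in each cross, the replicate number beside each point and a bar at the group mean. Module 2 spans 270 to 19046 CPM in maternal-cross KO, and module 3 spans 732 to 7462 CPM in maternal-cross HET.

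Module 3 held genes of fast skeletal muscle. It held 20 genes of the contractile apparatus, among them myosin heavy chains (myhz1.1, myhz1.2, myhz1.3, myhz2), troponin genes (TNNT3, TNNC2, TNNI2), tropomyosin tpma and skeletal actin actc1b, and 10 genes of calcium handling and energy supply, such as the calcium pump gene atp2a1, parvalbumin pvalb2 and the creatine kinases ckma and ckmb. TNNT3, si:ch73-367p23.2, ckmb, tpma, ckma and MYL11 followed the module mean with r of 0.991 to 0.998. All 33 genes peaked in maternal-cross HET 3, and 32 of them deviated downward most in maternal-cross HET 4.

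The 33 genes summed to 2473, 1141, 945 and 2201 CPM in maternal-cross KO and to 4036, 1609, 7462 and 732 CPM in maternal-cross HET. In the paternal cross the sums were 1387, 1034, 1116 and 2492 CPM in KO and 734, 1364, 855 and 629 CPM in HET. The highest HET pool of the maternal cross exceeded the lowest 10.2 times, and this ratio was 2.17 to 2.62 in the 3 other groups.

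The myosin gene myhz1.1 had 258, 78.3, 56.7 and 156 CPM in maternal-cross KO and 500.5, 151, 889.6 and 56.4 CPM in maternal-cross HET. The creatine kinase gene ckma had 70.4, 33.4, 30.2 and 66.7 CPM in maternal-cross KO and 96.0, 39.7, 198.3 and 20.2 CPM in maternal-cross HET. For both genes HET pools 1 and 3 were above every KO pool and HET pool 4 was below every one. Of 38 listed skeletal muscle markers 24 genes were found, and all 19 in the CPM window were members. Outside the window ENO3, an enolase gene named after its values were seen, stayed between 817 and 1045 CPM. The 24 genes summed to 1601 to 2804 CPM in maternal-cross KO, 1510 to 6550 CPM in maternal-cross HET, 1560 to 2666 CPM in paternal-cross KO and 1387 to 1990 CPM in paternal-cross HET. The tandem myosin genes myhz1.1, myhz1.2 and myhz1.3 are close copies, and their separate counts are uncertain.

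Module 1 was less uniform than the others, and its genes came from several tissues. RBM47, an RNA-binding protein gene, followed the module mean most closely (r = 0.984), and then SLC16A9, selenop, olmf4l1, PERP and CXCL12. Its 97 genes summed to 3322, 1493, 2054 and 3523 CPM in maternal-cross KO, 912, 2033, 4952 and 1224 CPM in maternal-cross HET, 2884, 2966, 2065 and 3497 CPM in paternal-cross KO, and 1647, 840.1, 731 and 2464 CPM in paternal-cross HET. Of the 97 genes, 68 peaked in maternal-cross HET 3 and 15 in paternal-cross HET 4. A closer cut of the same clustering (at 1 minus r of 0.3), added after the values were seen, split off 51 genes with keratin, interferon, macrophage and gonadal hormone genes and 34 genes with kidney, red blood cell and granulocyte genes.

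The group with kidney genes was high in maternal-cross HET 3 and paternal-cross HET 4. Its 10 genes of tubular transport included fxyd2, a regulator of the sodium pump, SLC22A8, an organic anion carrier, SLC12A3, the sodium-chloride carrier of the distal tubule, and CUBN, the uptake receptor cubilin. They summed to 206, 139, 109 and 102 CPM in maternal-cross KO and to 22.8, 83.4, 379 and 80.8 CPM in maternal-cross HET. Paternal-cross KO pools had 73.1, 74.0, 95.9 and 35.6 CPM, and paternal-cross HET pools had 55.3, 23.6, 26.4 and 182 CPM.

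SLC22A8 had 12.7, 5.97, 4.33 and 3.88 CPM in maternal-cross KO and 0.615, 5.71, 31.3 and 1.86 CPM in maternal-cross HET. In the paternal cross it had 0.166 to 1.02 CPM in KO pools and 1.44, 0.133, 0.0664 and 10.3 CPM in HET pools, of which pools 2 and 3 were close to or under the floor of 3 counts. The cadherin gene CDH17 had 1.85, 12.2, 70.0 and 12.7 CPM in maternal-cross HET and 6.22, 1.36, 1.59 and 27.1 CPM in paternal-cross HET. Both genes were thus high in the same pair of HET pools, 1 in each cross. CDH17 and CUBN are also on the intestine list. That list (22 genes, 3 of them members) summed to 78.7 to 129 CPM in maternal-cross KO, 35.2 to 203 CPM in maternal-cross HET, 61.3 to 70.8 CPM in paternal-cross KO and 30.04 to 82.5 CPM in paternal-cross HET, and its part in these values was not tested. Over the whole kidney list (13 genes, of which SLC12A3 was the only member) the sums were 374 to 429 CPM in maternal-cross KO, 321 to 476 CPM in maternal-cross HET, 303 to 476 CPM in paternal-cross KO and 276 to 335 CPM in paternal-cross HET, and none of the 13 was at 0 throughout. Of the 22 intestine genes 18, and of the 13 kidney genes 8, lay below the CPM window, so that the rule could not choose them. The slit-diaphragm gene NPHS1 of the glomerulus, not a member and named after its values were seen, had 5.09 to 7.57 CPM in all 16 libraries.

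Red blood cell genes were highest in the same HET pools as the kidney genes, but not in the same KO pools. The 6 erythroid members, with globin hbaa1, the heme synthesis gene alas2 and the ammonium carrier gene RHAG among them, summed to 297, 213, 260 and 355 CPM in maternal-cross KO and 77.1, 199.9, 535 and 147 CPM in maternal-cross HET. The sums were 222, 248, 367 and 394 CPM in paternal-cross KO and 287, 89.998, 103 and 716 CPM in paternal-cross HET. Hbaa1 had 22.1, 64.8, 175 and 44.8 CPM in maternal-cross HET and 98.0, 27.9, 35.6 and 264 CPM in paternal-cross HET. In both crosses the HET pool with the highest erythroid sum also had the highest sum of kidney members. In both KO groups pool 4 had the highest erythroid sum and the lowest sum of kidney members. The lysozyme gene lyz and npsn, both markers of granulocytes, were in the same cluster: lyz had 7.51, 18.997, 46.6 and 21.6 CPM in maternal-cross HET and 15.2, 5.22, 6.80 and 37.0 CPM in paternal-cross HET. Over the whole erythrocyte list (15 genes, 4 of them members) the sums ranged from 135 to 227 CPM in maternal-cross KO, 69.0 to 335 CPM in maternal-cross HET, 150 to 245 CPM in paternal-cross KO and 69.0 to 411 CPM in paternal-cross HET. Of the 15 genes 7 lay below the CPM window.

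Keratin and epithelial adhesion genes made up 8 members. Besides keratins krt5, krt17, krt91 and krt1-19e, they were col17a1b and ITGB4, parts of the hemidesmosome that anchors basal epithelial cells, and the desmosome genes pkp3a and PERP. Their sum was 591, 122, 349.9 and 680.4 CPM in maternal-cross KO and 157, 328, 803 and 148 CPM in maternal-cross HET. It was 329.8, 219, 175 and 286 CPM in paternal-cross KO and 251, 227, 115 and 213 CPM in paternal-cross HET. Krt17 had 13.3, 1.18, 7.34 and 19.6 CPM in maternal-cross KO and 2.72, 13.4, 52.9 and 2.17 CPM in maternal-cross HET. KO pool 2 was the low pool of its group for all 4 keratins, and the KO and HET ranges overlapped. Of the 26 epidermis list genes 4 were members and 13 lay below the CPM window. The whole list varied less, with 1765 to 3161 CPM in maternal-cross KO and 1945 to 3726 CPM in maternal-cross HET.

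Somatic gonad genes were few among the members, but the Sertoli and Leydig markers varied more than most genes. In the CPM window the 6 Sertoli-cell markers had a median residual SD of 0.372 and the 5 Leydig-cell and steroid markers 0.352. The 90th percentile over all 12140 genes was 0.314. This spread was not particular to these markers. Medians above that percentile were also found for leukocyte (0.436), epidermis (0.421), adipocyte (0.390) and fibroblast and matrix (0.357) markers. Kidney (0.272) and granulosa (0.221) markers, among others, were below it. The anti-Müllerian hormone gene amh was the only member of 6 Sertoli-cell markers found, and STAR, which carries cholesterol into mitochondria, and hsd3b1, a steroid dehydrogenase gene, were the members of 9 Leydig-cell and steroid markers. INHBB, an activin and inhibin subunit gene, and RXFP2, a receptor for insulin-like peptides, completed a group of 5. The lists are named for cells of the testis, but oocyte markers were present in all libraries. Which cells, of testis or ovary, made these RNAs was not tested. Amh had 45.0, 19.6, 7.80 and 30.7 CPM in maternal-cross KO and 10.2, 14.2, 62.8 and 9.53 CPM in maternal-cross HET, where the group ranges overlapped. The 5 genes summed to 90.4, 45.8, 22.4 and 66.8 CPM in maternal-cross KO and 20.7, 39.4, 138 and 25.1 CPM in maternal-cross HET.

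No marker of oocytes, germ cells and meiosis, sperm tails or granulosa cells that was matched by symbol was a member. In the CPM window, the 10 oocyte markers had a median residual SD of 0.134 and the 14 germ-cell and meiosis markers 0.143, close to the median of 0.138 over all 12140 genes. The medians of the 4 sperm-tail markers and the 5 granulosa markers in the window were above it, at 0.242 and 0.221, and the other 15 of 19 sperm-tail markers lay below the window, so that the rule could not choose them. Proliferation genes (17 in the window, median 0.120), heat-shock genes (11, median 0.145) and clock genes (17, median 0.174) also gave no member matched by symbol. The 13 immediate early genes, whose median was 0.312, gave none either. The collagen chaperone gene SERPINH1, a member, was not matched to the heat-shock list, which gives it with a suffix.

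The 35 members outside the modules included 1 small cluster with a shared role. Both COL10A1 genes, enam and scpp7 encode matrix proteins of teeth, bone or scales, and paplnb joined them. The first 4 summed to 109, 24.1, 169 and 107 CPM in maternal-cross KO, 69.9, 139, 73.1 and 59.9 CPM in maternal-cross HET, 57.7, 36.4, 48.9 and 91.3 CPM in paternal-cross KO, and 145, 45.7, 21.1 and 19.2 CPM in paternal-cross HET. The highest pools were maternal-cross KO 3 and paternal-cross HET 1, which were not the highest for muscle or kidney genes. In paternal-cross KO, however, pool 4 was the highest both for these 4 genes and for the muscle genes of module 3. The COL10A1 gene ENSDARG00000101535 had 47.7, 14.2, 4.45 and 3.93 CPM in paternal-cross HET.

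**Figure D3:**
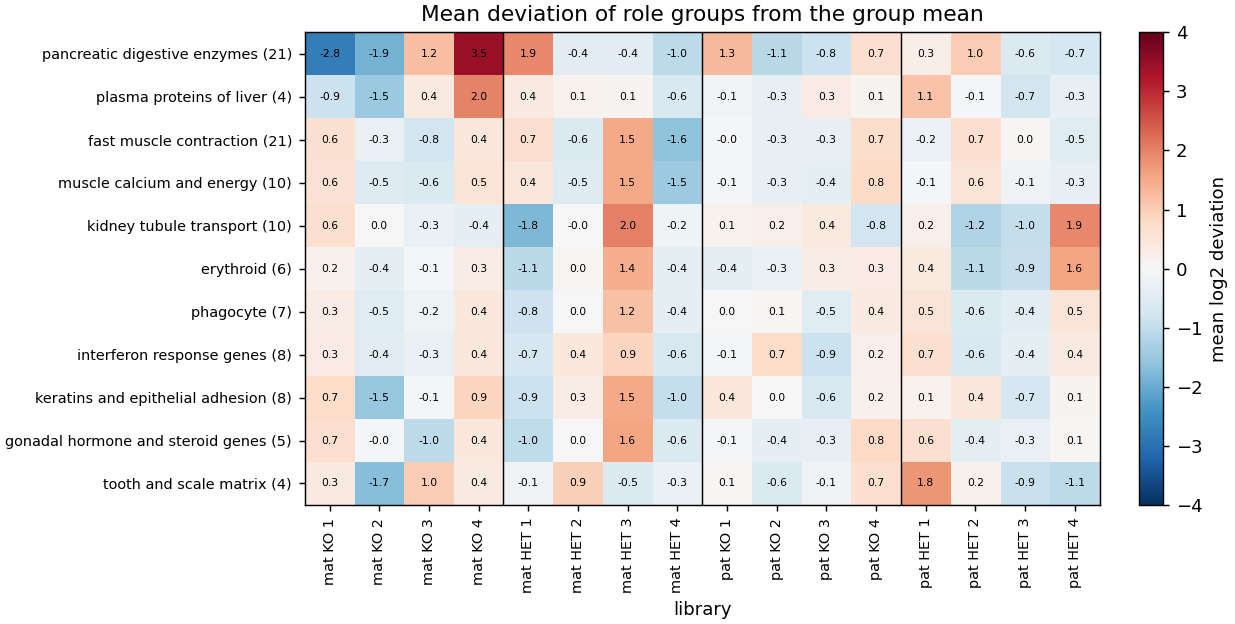
Mean deviation from the group mean, in log2(CPM + 0.5), of the members of 11 role groups (rows, number of genes in brackets) in each library (columns). Pancreatic enzymes range from -2.76 in maternal-cross KO 1 to 3.46 in maternal-cross KO 4, while kidney and erythroid genes share their highest HET libraries, maternal-cross HET 3 and paternal-cross HET 4.

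The contrast of KO with HET was not used to choose the members, and it was tested with edgeR's quasi-likelihood test on all 21683 genes that passed the filter on low counts, all 200 members included. Members were picked for a large spread within groups, which widens the error of each of their fold changes. A pool that gives a member its spread can also shift the fold change itself. Nothing in the labels says whether replicate pools came from separate clutches, so the p-values measure the spread between these pools. In the maternal cross, 0.198% of all genes had an adjusted p of at most 0.05, and 1 member did (0.5%). Genes called higher in KO were 0.157% of all genes and 0 members, and genes called lower were 0.0415% of all genes and 1 member. At an unadjusted p under 0.05 there were 66 members and 1931 genes of all.

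The member was SERPINH1, which encodes a chaperone of collagen in the endoplasmic reticulum and clustered loosely with module 1. It had 2.56, 1.06, 2.21 and 8.68 CPM in maternal-cross KO, against 8.39, 28.5, 19.6 and 16.5 CPM in maternal-cross HET. KO pool 4 lay above HET pool 1 and the other KO pools lay below all HET pools. Its mean was 3.63 ± 3.43 CPM in maternal-cross KO, against 18.2 ± 8.29 CPM in maternal-cross HET (SD, n = 4 each). The log2 fold change was -2.42 with a standard error (SE) of 0.455 (edgeR quasi-likelihood test, Benjamini-Hochberg adjusted p = 0.0363). The call did not hold in 7 of the 14 alternative fits of this gene, among them the fit with the replicate block, the fit of only the maternal-cross groups and the fits without KO pool 1, KO pool 3, HET pool 2 or HET pool 4. Without KO pool 4 the log2 fold change was -3.31. In the paternal cross the log2 fold change of SERPINH1 was 0.47, and the difference between the crosses was -2.89. Neither passed the test.

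The pancreatic enzymes had the largest average differences of the role groups in this cross, and none passed the test. All 21 had positive log2 fold changes of 2.37 to 4.43, KO over HET, with a median of 3.503, beside a median of -0.00 over all genes tested. The lowest adjusted p in module 2 was 0.127 in edgeR's quasi-likelihood test. All 35 genes of the module had an unadjusted p under 0.05, 33 of them with a positive log2 fold change. The lowest log2 fold change, -1.52, was that of the plasma protein gene serpina10a. However, the 35 genes share the same 8 libraries, and the high KO pools that gave them their spread also raise their fold changes. A shared sign therefore adds little. Their sums in KO pools 1 and 2, 270 and 484 CPM, lay inside the HET range of 202.4 to 1359 CPM. The 33 muscle genes of module 3 had a median log2 fold change of -0.97 with none above 0, a lowest adjusted p of 0.302, and none passed the test. The high HET pools that gave these muscle genes their spread likewise lower their fold changes.

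In the paternal cross, 23.2% of all genes had an adjusted p of at most 0.05 and 41 members did (20.5%), a share close to that of all genes. At an unadjusted p under 0.05 in the same test there were 48 of the 200 members and 8623 of the 21683 genes tested, a smaller share of the members than of all genes. Genes called higher in KO were 14.1% of all genes and 39 of the 200 members (19.5%), and genes called lower were 9.14% of all genes and 2 members. The median log2 fold change was 0.53 over the members and 0.02 over all genes. Module 1 held 38 of the 39 higher calls, modules 2 and 3 held none, and rtn4rl2a, outside the modules, was the other. Without KO pool 4, HET pool 2 or HET pool 3 the members called were 20, 26 and 16, and the genes called over the whole table were 1026, 3084 and 1286 of the 5034 with all libraries. Within module 1 the calls fell on the cluster with interferon and macrophage genes, 35 of 51, while 2 of the 34 genes of the cluster with kidney and erythroid genes passed. The clusters were formed from these same libraries, and the difference between them was not tested.

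All 8 members that respond to interferon were called higher in paternal-cross KO than in paternal-cross HET, with log2 fold changes of 1.41 to 2.305. Genes called higher in this cross were 14.1% of all genes tested. The 8 members were grouped after the values were seen. They share the same libraries, with a median pairwise r of 0.94, so they are not 8 separate results. Among the 8 members were RSAD2, mxa, mxb, isg15, DHX58, ifi44a1 and ifi27.2. The antiviral GTPase gene mxb had 14.3, 32.4, 8.31 and 15.6 CPM in paternal-cross KO, against 5.39, 1.70, 1.79 and 4.13 CPM in paternal-cross HET. Its mean was 17.6 ± 10.3 CPM in paternal-cross KO, against 3.25 ± 1.81 CPM in paternal-cross HET (SD, n = 4 each). Its log2 fold change was 2.305 (SE 0.439, adjusted p = 0.00697 by edgeR's quasi-likelihood test). In the maternal cross the 8 genes had log2 fold changes of -0.49 to 0.36 and none passed. Their sum averaged 111 CPM in maternal-cross KO, 107 CPM in maternal-cross HET, 208 CPM in paternal-cross KO and 56.7 CPM in paternal-cross HET. Both maternal-cross means thus lay between those of the paternal cross.

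Of 7 phagocyte members 5 were called higher in paternal-cross KO than in paternal-cross HET, beside 14.1% of all genes tested. These 5 had log2 fold changes of 1.61 to 1.96. They were the scavenger receptor gene marco, both MPEG1 genes, which encode pore-forming perforin-like proteins of macrophages, and the complement genes c1qb and c1qc. Marco had 31.7, 33.6, 16.8 and 32.5 CPM in paternal-cross KO, against 11.9, 4.86, 5.64 and 8.91 CPM in paternal-cross HET (log2 fold change 1.73, SE 0.369, edgeR adjusted p = 0.00914). The granulocyte genes lyz and npsn were the other pair and did not pass. The 7 members were likewise grouped after the values were seen and share the same libraries. Their sum averaged 105 CPM in maternal-cross KO, 84.1 CPM in maternal-cross HET, 118 CPM in paternal-cross KO and 50.8 CPM in paternal-cross HET.

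The genes with the largest positive log2 fold changes were mostly of the same cluster. Lgals3bp.1, a galectin-3-binding protein gene, had 396, 446, 124 and 380.4 CPM in paternal-cross KO, against 99.7, 27.6, 28.7 and 41.6 CPM in paternal-cross HET, with a log2 fold change of 2.63 (SE 0.486, edgeR adjusted p = 0.00625). The log2 fold changes of rtn4rl2a, a Nogo receptor-like gene, STAR, the granulin gene grna.1 and si:dkey-238c7.13 were 2.52, 2.44, 2.41 and 2.38. Rtn4rl2a had 9.15, 29.5, 9.75 and 9.98 CPM in paternal-cross KO, against 5.08, 1.397, 1.66 and 1.22 CPM in paternal-cross HET. Its log2 fold change was 1.91 without KO pool 2 and 3.16 without HET pool 1.

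Of the 5 gonadal hormone and steroid members 4 were called higher in paternal-cross KO than in paternal-cross HET, beside 14.1% of all genes tested. The sum of the 5 averaged 84.0 CPM in paternal-cross KO and 21.0 CPM in paternal-cross HET. It averaged 56.4 CPM in maternal-cross KO and 55.7 CPM in maternal-cross HET. STAR had 10.1, 6.69, 9.05 and 18.6 CPM in paternal-cross KO, against 3.22, 0.765, 1.19 and 2.27 CPM in paternal-cross HET (SE of the log2 fold change 0.655, edgeR adjusted p = 0.0189). Amh had 26.2, 16.9, 26.1 and 70.7 CPM in paternal-cross KO, against 10.7, 4.46, 6.04 and 3.996 CPM in paternal-cross HET (log2 fold change 2.31, SE 0.620, edgeR adjusted p = 0.0189). Hsd3b1 had 16.6, 14.5, 14.4 and 31.1 CPM in paternal-cross KO, against 7.55, 3.06, 2.82 and 2.91 CPM in paternal-cross HET (log2 fold change 2.08, SE 0.542, edgeR adjusted p = 0.0169). The KO and HET pools of these 3 genes did not overlap. The share of all genes without overlap was not counted, and 23.2% of all genes passed the test in this cross. INHBB was the fourth with a log2 fold change of 1.74, and RXFP2 at 0.02 did not pass. Leaving out 1 library ended the call of each of the 3 genes in some cases: STAR without KO pool 4, HET pool 2 or HET pool 3, amh without KO pool 4, HET pool 3 or HET pool 4, and hsd3b1 without KO pool 4 or HET pool 3.

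Whole lists of cell markers moved with these calls. The leukocyte list (29 genes, 3 of them members, none at 0 throughout) summed to 552 to 1021 CPM in paternal-cross KO and 271 to 455 CPM in paternal-cross HET. It left out both MPEG1 members, whose symbol was not matched, and 14 of its 29 genes lay below the CPM window. The Sertoli-cell list (6 genes, amh included) summed to 347 to 672 CPM in paternal-cross KO and 145 to 256 CPM in paternal-cross HET, and the Leydig and steroid list (9 genes) to 324 to 422 CPM and 251 to 293 CPM in the same groups. These lists did not stand alone. The lists of fibroblasts and matrix, endothelium, adipocytes, MHC genes, granulosa cells, liver and plasma proteins, nervous system and interferon response were also higher in paternal-cross KO with no overlap of the sums. Among the lists whose KO and HET sums overlapped were skeletal muscle, erythrocyte, exocrine pancreas, germ cell and meiosis, and smooth muscle (83.3 to 124 CPM in KO, 54.6 to 91.6 CPM in HET). The share of all genes without overlap was not counted, and 23.2% of all genes passed the edgeR test in this cross. The fibroblast and matrix list (14 genes) summed to 1134 to 1950.0 CPM in paternal-cross KO and 601 to 950.4 CPM in paternal-cross HET, the adipocyte list (10 genes) to 374 to 666 CPM and 139 to 301 CPM in the same groups, and the granulosa list (6 genes) to 74.5 to 91.6 CPM and 53.1 to 70.5 CPM. The oocyte list (27 genes) summed to 36184 to 40928 CPM in paternal-cross KO and 40505 to 47314 CPM in paternal-cross HET. In the maternal cross the leukocyte list summed to 397 to 731 CPM in KO and 303 to 820.1 CPM in HET, and the Sertoli-cell list to 218 to 435 CPM in KO and 182 to 499.6 CPM in HET. The part of these cell classes in the members' changes was not tested.

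The 2 members called lower in paternal-cross KO lay outside the modules. Si:ch211-161h7.5 had 90.6, 34.1, 105 and 10.6 CPM in paternal-cross KO, against 218, 143, 146 and 204 CPM in paternal-cross HET (log2 fold change -1.68, SE 0.583, edgeR adjusted p = 0.0472). Hyal6, of the hyaluronidase family, had 9.85, 6.34, 8.43 and 13.7 CPM in paternal-cross KO, against 36.0, 13.3, 15.5 and 13.6 CPM in paternal-cross HET (log2 fold change -1.17, SE 0.392, edgeR adjusted p = 0.0412). Their calls did not hold in 7 and 6 of 14 alternative fits.

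None of the 10 kidney, 8 keratin, 6 erythroid, 31 muscle, 21 pancreatic enzyme and 4 tooth and scale members passed in the paternal cross. Pancreatic enzymes had log2 fold changes of 0.32 to 2.24 there, with a lowest adjusted p of 0.252, and kidney genes of -2.34 to 0.19, with a lowest adjusted p of 0.172 in edgeR's quasi-likelihood test.

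**Figure D4:**
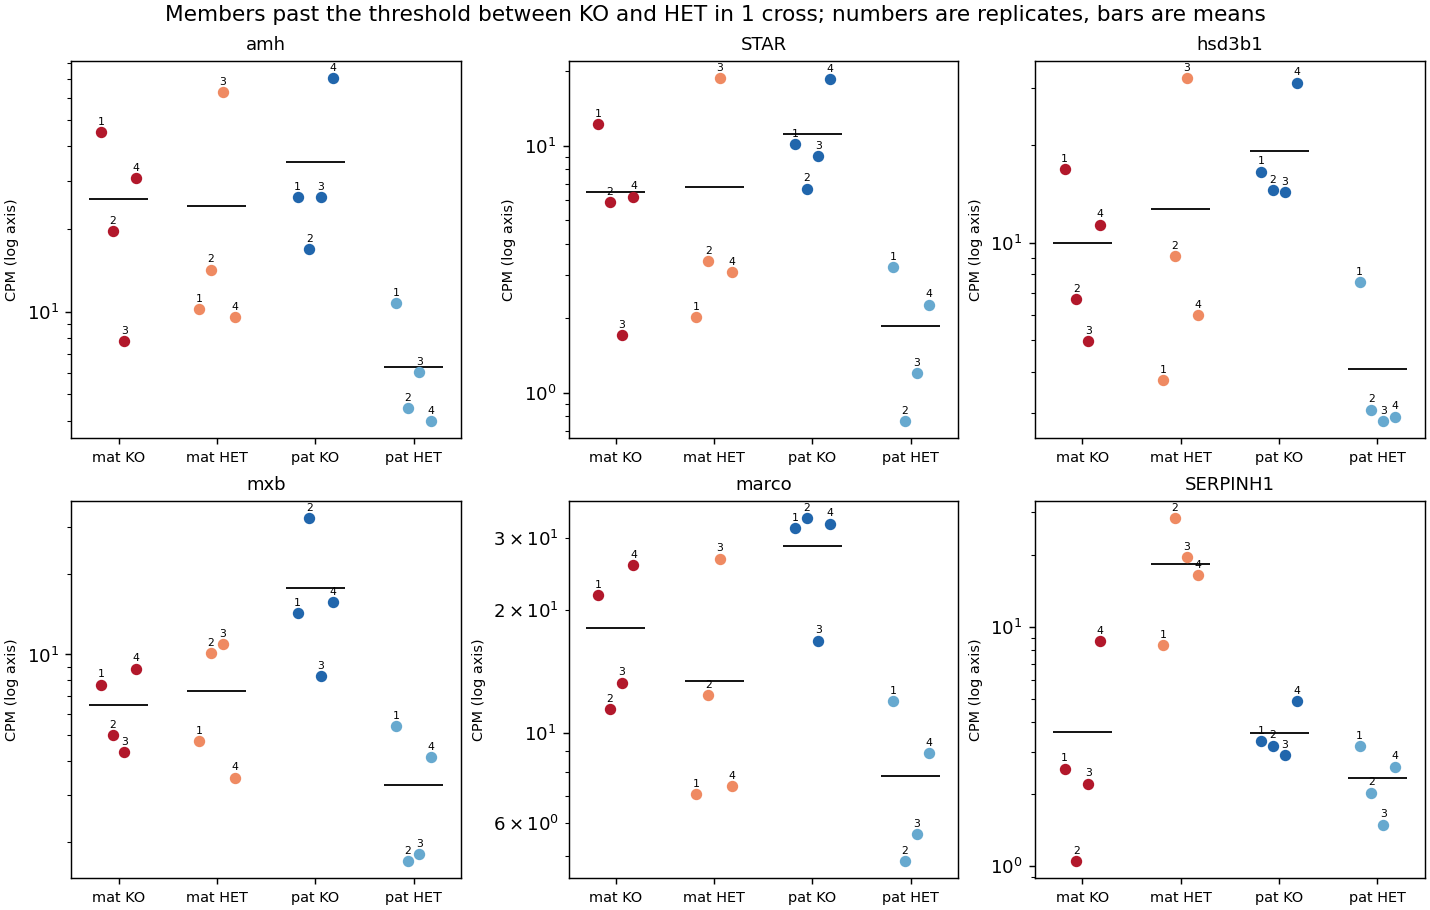
Level of 6 members that passed the test between KO and HET in 1 cross (CPM, log axes), with KO left of HET in each cross, the replicate number beside each point and a bar at the group mean. Amh, STAR, hsd3b1, mxb and marco average higher in KO in the paternal cross and overlap in the maternal cross. SERPINH1 averages 3.63 CPM in maternal-cross KO and 18.2 CPM in maternal-cross HET.

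The difference between the KO effects of the crosses, maternal minus paternal, was called for 0.189% of all genes and for 0 members by edgeR's quasi-likelihood test, with 0.06% of all genes called for a positive and 0.129% for a negative difference. At an unadjusted p under 0.05 there were 65 members and 3978 genes of all, and DESeq2's Wald test called 14 members, 12 of them for a negative difference. The same test called 641 of the 28668 genes it tested (2.24%), with 482 (1.68%) for a negative difference. Leaving out 1 library gave edgeR 1 to 3 members in 4 of 16 cases: without maternal-cross KO pool 4, maternal-cross HET pool 1 or 4, or paternal-cross HET pool 1. The 8 interferon response members had interaction values of -2.55 to -1.05 on the log2 scale with a lowest adjusted p of 0.082, so a difference between the crosses was not shown for them. The 21 pancreatic enzymes had values of 1.46 to 2.69 with a lowest adjusted p of 0.335, and the 33 genes of module 3 had values of -2.94 to -0.77 with a lowest adjusted p of 0.155 (edgeR).

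**Figure D5:**
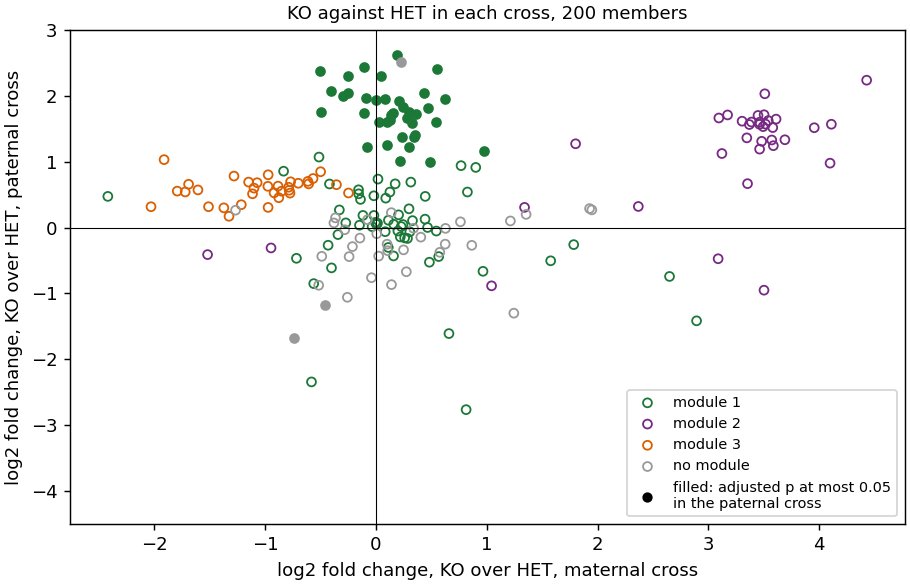
Log2 fold change of KO over HET for each of the 200 members in the maternal cross (horizontal axis) and in the paternal cross (vertical axis), coloured by module, with filled points for members at an adjusted p of at most 0.05 in the paternal cross. Module 2 lies at a median of 3.46 in the maternal cross without a filled point, and the filled points of module 1 lie between 1.00 and 2.63 in the paternal cross.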

How the data were processed

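The authors deposited 1 table of raw counts per Ensembl gene, with 1 column for each of the 16 libraries and 0 columns left out here. Reads were aligned with STAR 2.4.1d to danRer 10 and counted with featureCounts 1.4.6, as far as the submitters' processing notes name these tools, and whether counting used the strand is not given in the sources used here. Overlapping genes and close paralogs are therefore uncertain. Per the labels' protocols, polyadenylated RNA was prepared with a stranded kit and all libraries shared a sequencing run. Symbols were matched to 26121 of the 31953 identifiers and to 193 of the 200 members, and many are in the upper case of the human orthologue. Totals were 19.9 to 30.1 M counts. The floor of 3 counts covers counting error only.

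The members were chosen by the spread of log2(CPM + 0.5) within groups, as the results state. The members and the marker lists were chosen with earlier results of these data known. Role groups, the closer cut of the clustering and part of the example genes were chosen after the values were seen. Genes named by rule were the 10 members of highest SD, those at the threshold, the 6 closest to each module's mean, list members, and the 5 largest called changes in each direction and contrast. The 28 marker lists were matched by symbol without regard to case. Listed genes whose symbol here has the human form without its suffix were not matched. The members SERPINH1, COL10A1 and MPEG1 were thus not counted on the heat-shock, bone and cartilage, and leukocyte lists, which give these genes with a suffix. Lists with no matched member that the results do not describe were smooth muscle, bone and cartilage, and pigment cell.

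Low counts were removed by filterByExpr with the groups given and a minimum count of 10. The rest were normalized by the trimmed mean of M values and tested with edgeR 4.0.16 (R 4.3.3) in a quasi-likelihood model of the 4 groups over all 16 libraries, with Benjamini-Hochberg adjustment over 21683 genes and a threshold of 0.05. The SE was taken from each log2 fold change and the root of its F statistic. The procedure was also run on simulated counts, with a spread that followed each gene's mean level and no deviation shared between genes of a pool. Because the members were chosen for a larger, shared spread, that run does not speak for their calls. DESeq2 1.42.0, other scaling, no filter, a stricter threshold, the replicate number as a block and leaving out each library were alternatives. No replicate pair agreed within sampling noise (chi-square per degree of freedom 6.46 to 52.6 over 24 pairs). No sequences were used here.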

Additional observations from a re-analysis of the deposited data

Results flagged for a closer look

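Within groups of 4 libraries, single values far from the other 3 were looked for by the gap to the nearest value relative to the range. The 140 sets of 4 values were the mean log2 deviations of the 3 modules and the levels of 32 named members in each group. The summed CPM of the modules was not screened. This gave 7 such values, and chance gives about 7. All 7 lay in the paternal cross, and the values are log2(CPM + 0.5). Marco at 4.11 and lgals3bp.1 at 6.96 were low in paternal-cross KO 3, which was also the lowest pool of its group for all 8 interferon response members. Rtn4rl2a was high in paternal-cross KO 2 at 4.91. Amy2al2 at 2.08 and pvalb2 at 6.52 were high in paternal-cross HET 2, and hsd3b1 at 3.01 and hyal6 at 5.19 were high in paternal-cross HET 1.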

How the results depend on the processing

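The fold changes of SERPINH1, lgals3bp.1, rtn4rl2a, STAR, grna.1, si:dkey-238c7.13, amh, hsd3b1, mxb, marco, si:ch211-161h7.5 and hyal6, each in the cross where it was called, kept their direction under the alternatives run. Those of other named genes are not compared here. In the maternal cross the count of members called (1) was 0 at an adjusted p of 0.01, 2 with DESeq2 size factors, 2 without the filter, 0 with only the groups compared, 6 with DESeq2's Wald test, and 0 to 2 when 1 library was left out. In the paternal cross (41) it was 16 at an adjusted p of 0.01, 42 with DESeq2 size factors, 42 without the filter, 56 with only the groups compared and 44 with DESeq2's Wald test, and it ran from 16 to 41 when 1 library was left out: 20 without KO pool 4, 26 without HET pool 2 and 16 without HET pool 3, where the counts over all genes were 1026, 3084 and 1286. For the interaction (0) the Wald test called 14 members, 12 of them more negative, and 641 of 28668 genes, 482 of them more negative, and leaving out 1 library gave 0 to 3. With the replicate number as a block the counts were 1, 36 and 0, the 1 in the maternal cross being another gene, higher in KO, while SERPINH1 lost its call, and with the block and only the groups compared, added after seeing the data, 0 and 57. Same-numbered KO and HET pools did not deviate together in the maternal cross (r of -0.49 to -0.21). In the paternal cross r was 0.44 for pools 3 and -0.12 to 0.04 for the others. The numbers were not taken as pairs. The rule chose 121 of the 200 members again with a window of 2 to 500 CPM, 100 when only 100 genes were taken, and 166 to 193 when 1 library was left out. The share of the first axis was 44.2%, 53.3% for the top 100 genes, 39.5% without maternal-cross KO 4 and 52.8% without maternal-cross HET 3. Depth limited only genes near the floor, such as SLC22A8 in 2 paternal-cross HET pools.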
